A study of Mus musculus with 7 samples.

Results

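The genes described here are 32 of the 37310 genes in the deposited counts, namely 19 claudins, 6 other membrane proteins of the junction, 5 scaffold and polarity proteins, and 2 epithelial adhesion proteins. They were taken by symbol from a list of names by a rule that uses no measured value, and each symbol matched 1 gene. Tight junctions seal the space between neighbouring epithelial cells, and claudins are the membrane proteins that form their strands and set which ions and molecules pass. In the mammary gland, junctions between the luminal cells close around the onset of milk secretion and keep milk constituents in the lumen apart from those of the blood. Occludin and tricellulin share the strands with the claudins, junctional adhesion molecules lie beside them, and scaffolds such as ZO-1 tie them to actin, whereas E-cadherin belongs to the adherens junction just below.

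RNA-seq was performed on mammary glands of C57BL/6 mice at lactation day 1, from 3 WT and 4 *Tardbp* KO libraries. The study's figure names mammary glands for these data, while its text also speaks of epithelium and of mammary epithelial cells. *Tardbp* encodes TDP-43, an RNA-binding protein. The KO mice were *Tardbp* flox/flox with WAP-Cre, in which Cre removes exons 2 and 3 of *Tardbp*, and the WT mice carried WAP-Cre with intact *Tardbp*. WAP-Cre is under the control of the whey acidic protein promoter and acts in luminal epithelial cells from the middle of pregnancy into lactation, so the other cells of the gland keep the gene. Neither age nor pooling is stated. The study counts the libraries of a genotype as mice, while the labels name no animal. The count of the whole *Tardbp* gene did not separate the genotypes (186.7 ± 32.61 CPM, counts scaled by library size and TMM factor, in WT and 188.2 ± 28.24 in KO, SD), and counts of single exons were not used here, so the deletion was not checked.

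The libraries held 36007737 to 42811337 counts. The share of milk protein genes was 28.9% ± 4.42 (SD, n = 3) in WT and 17.2% ± 4.15 (SD, n = 4) in KO. Of 8 luminal markers, 2 were higher and 2 lower in KO at an unadjusted p under 0.05 in edgeR's quasi-likelihood test, all 8 were above 1 CPM, and their summed level was 2490 to 2930 CPM in WT and 2460 to 3400 CPM in KO. All 8 lymphocyte markers were higher in KO at that limit, with sums of 24.2 to 33.1 CPM in WT and 43.8 to 377 CPM in KO, and the part of these shifts in the junction genes was not tested. In bulk tissue, fewer cells of a type and less RNA per cell cannot be told apart. The sequencing IDs in the labels end in L1 to L5, taken here as lanes, and lane 4 is the only one with both genotypes, in WT replicate 2 and KO replicates 3 and 4.

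Claudins carry a signature in their first extracellular loop, in which glycine, leucine and tryptophan are followed by a cysteine. The codons of this signature were found by pattern in the coding sequences of 17 of the 19 claudins. They are shown for the 5 most abundant claudins, since near-identical sequence would decide whether reads could be told apart. Each is given 5′ to 3′ on the gene's strand in assembly NCBIM37, within coding sequence, with the codons of the 4 named residues in capitals.
*Cldn3*, chr5:135462456-135462473, + strand: GGCCTGTGGatgaacTGC
*Cldn7*, chr11:69779573-69779590, + strand: GGGCTCTGGatggagTGC
*Cldn4*, chr5:135422454-135422471, - strand: GGCCTCTGGatgaacTGC
*Cldn5*, chr16:18777233-18777250, + strand: GGGCTGTGGatgtcgTGC
*Cldn8*, chr16:88563119-88563136, - strand: GGCTTGTGGatgaatTGT

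The longest stretch shared by the annotated transcripts of *Cldn3* and *Cldn4* had 35 bases, and *Cldn6* and *Cldn9* shared 37. All other claudin pairs shared 22 bases or fewer. Of the 32 genes, 28 had no exon base in common with another gene, and in the other 4 at most 3.18% of the exon bases were shared.

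Per kb of exon, *Cldn3* was the dominant claudin of the gland over the 7 libraries, and 5 claudins made up nearly all of the claudin RNA. Levels between genes are compared as RPKM, the CPM divided by exon length in kb. *Cldn3* held 32.7% ± 13.6 (SD, n = 3) of the summed claudin RPKM in WT and 51.7% ± 4.79 (SD, n = 4) in KO. *Cldn3*, *Cldn7*, *Cldn8*, *Cldn4* and *Cldn5* together held 91.9% ± 2.44 in WT and 95% ± 0.741 in KO (SD). By RPKM *Cldn3* was first in 6 of 7 libraries, and *Cldn8* was first in WT replicate 1. This order depends on the division by exon length, which takes the bases of all annotated exons of a gene. For *Cldn7* these were 1948 bases, while its longest coding transcript had 1335. *Cldn3*, *Cldn4*, *Cldn5* and *Cldn8* had the same length by either measure. Division by the shorter length would raise *Cldn7* relative to them, so that it could lead in some WT libraries. That order was not computed. In undivided counts *Cldn8* exceeded *Cldn3* in WT replicate 1 (5302 against 1810) and WT replicate 3 (5463 against 4028). *Cldn3* had the higher count in WT replicate 2 and in every KO library.

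**Figure D1:**
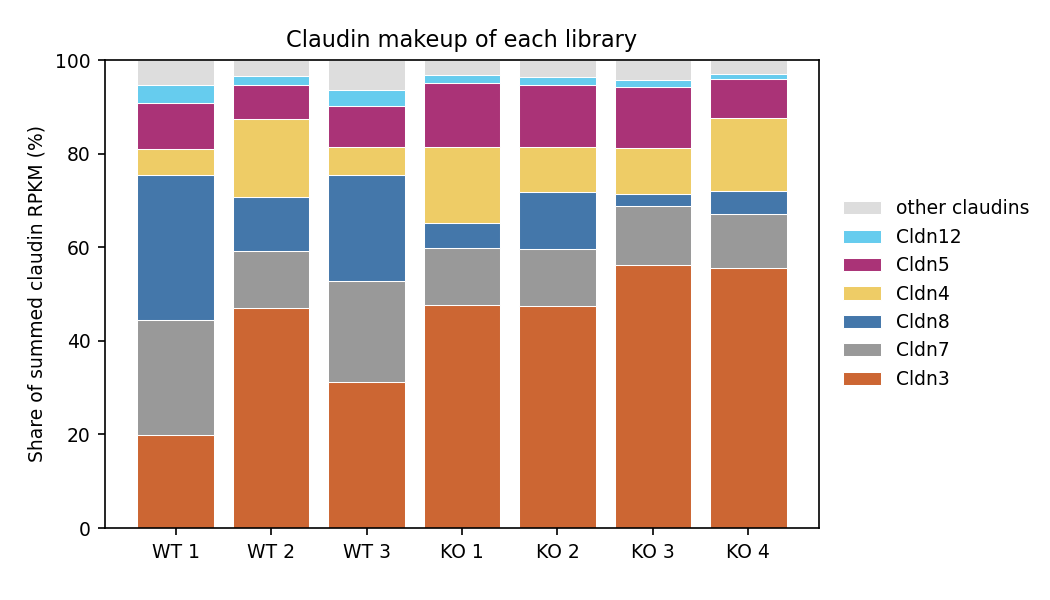
Stacked bars give the percentage of the summed claudin RPKM held by each of the 6 leading claudins and by the others together, for each of the 7 libraries. *Cldn3* takes 47.5% to 56.1% in the KO libraries and 19.8%, 47% and 31.2% in the WT libraries.

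By library, the share of *Cldn3* was 19.8%, 47% and 31.2% in WT replicates 1 to 3 and 47.7%, 47.5%, 56.1% and 55.6% in KO replicates 1 to 4. The genotypes did not overlap, but WT replicate 2 (47%) came close to the lowest KO library (47.5%). The mean difference was 19.1 percentage points, with a 2-sided exact permutation p of 0.0286, the smallest that 3 against 4 libraries can give. The permutation p was 0.0857 after Benjamini-Hochberg adjustment over the 3 claudins tested, those with the highest mean share over all libraries. The share of *Cldn8*, a barrier claudin of kidney tubules and colon, was 31%, 11.7% and 22.6% in WT and 5.28%, 12.1%, 2.65% and 4.79% in KO. These groups overlapped, as KO replicate 2 lay above WT replicate 2, and the exact permutation p was 0.0571 (adjusted 0.0857). The share of *Cldn7* was 24.7%, 12.1% and 21.6% in WT and 12.1%, 12.2%, 12.6% and 11.6% in KO (exact permutation p = 0.0857, adjusted 0.0857). Shares in a library have a fixed sum, so these 3 differences are not separate results. The level of *Cldn7* itself hardly differed (log2 fold change 0.01). Mean shares of *Cldn4* and *Cldn5*, which were not tested, were 9.32% and 8.68% in WT and 12.8% and 12.1% in KO. Without WT replicate 1 the differences in share shrank to 12.67 points for *Cldn3* and -4.73 for *Cldn7*, and without WT replicate 2 they were 26.25 and -11.01. Within lane 4 the *Cldn3* share differed by 8.92 percentage points and the *Cldn8* share by -7.94, with 1 WT library and no test.

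Over all 7 libraries the order of mean levels was *Cldn3* (218 RPKM), *Cldn7* (65.6), *Cldn4* (58.5), *Cldn5* (49.6) and *Cldn8* (49.3), followed by *Cldn12* (8.8), *Cldn15* (7.11), *Cldn1* (4.87) and *Cldn23* (4.35). These 9 claudins had a mean of at least 1 RPKM, 7 had counts but stayed below it, and 3 had no count in any library. The 4 claudins behind *Cldn3* had ranges that overlapped one another over the 7 libraries (62.5 to 67.4 RPKM in WT and 55.4 to 82.1 in KO for *Cldn7*, 14.8 to 85.6 and 43.3 to 110 for *Cldn4*, 27 to 37.8 and 58.3 to 78.2 for *Cldn5*, 60.2 to 84.6 and 12 to 55.2 for *Cldn8*). Their order differed between genotypes. *Cldn8* had rank 2 by mean level in WT and rank 5 in KO, and *Cldn4* had rank 4 in WT and rank 2 in KO. These ranks also depend on the exon length used for *Cldn7*. No test was run between genes. Claudin RNA summed to 273, 516 and 305 RPKM in WT and to 569, 455, 452 and 706 RPKM in KO, so that WT replicate 2 lay among the KO libraries.

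**Figure D2:**
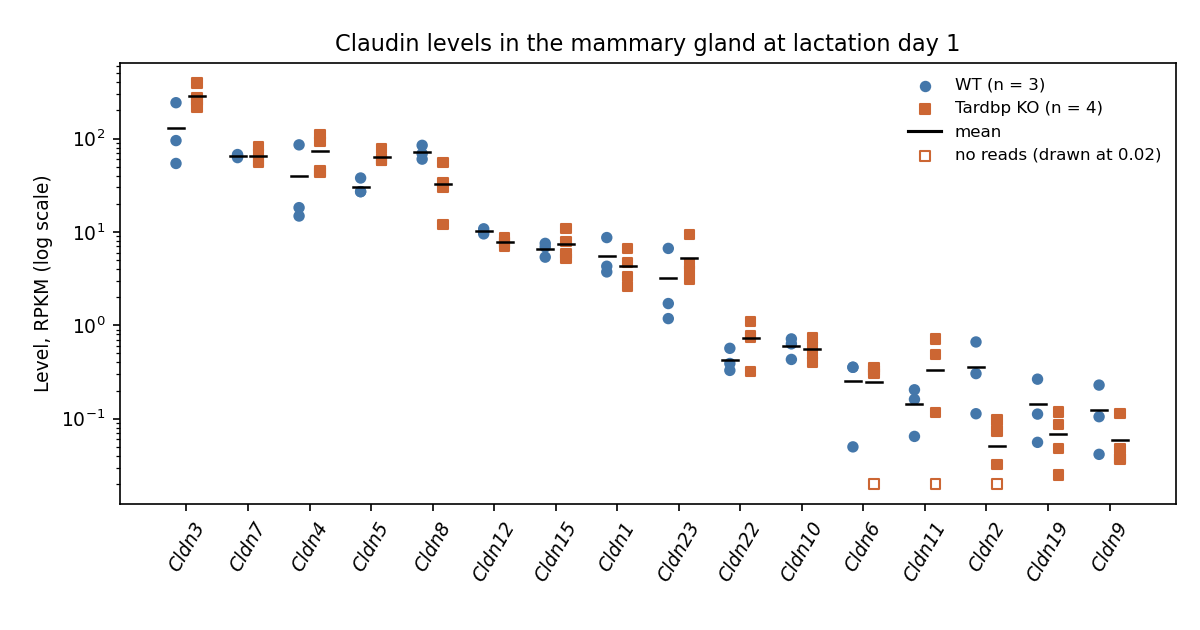
Points give RPKM on a log axis for the 16 claudins with any count, as circles for the 3 WT and squares for the 4 KO libraries, with lines at the group means and open squares for libraries without a count. The means of the 5 leading claudins lie above those of the others in both genotypes, and *Cldn8* and *Cldn5* are separated by genotype in opposite directions.

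The genotypes were compared gene by gene with edgeR's quasi-likelihood test, and p below is its unadjusted p unless another test is named. Adjusted p is the Benjamini-Hochberg value over the 17175 genes that passed a filter of at least 5 counts in at least 4 libraries. A gene was called at an adjusted p under 0.01 if its log2 fold change was also above 1 or below -1, and a positive fold change means a higher level in KO. The quasi-likelihood test called 0.00% of all genes tested, 21.4% had an unadjusted p under 0.05 (10.7% higher and 10.7% lower), and the lowest adjusted p of any gene was 0.0165. On the same counts edgeR's exact test called 2.48% and DESeq2 3.33% of the genes. In 18.7% of the genes the 2 genotypes did not overlap, with KO higher in 9.07% and lower in 9.62%.

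Of the 32 genes 28 were tested, and *Cldn9*, *Cldn14*, *Cldn16* and *Cldn18* were not. The quasi-likelihood test called none of the 28, whereas edgeR's exact test and DESeq2 each called 1, *Cldn5*. An unadjusted p under 0.05 was found for 6 of 28 (21.4%), the same percentage as over all genes. *Cldn3*, *Cldn5* and *Cdh1* were the 3 higher ones and *Cldn2*, *Cldn8* and *Cldn12* the 3 lower ones. The count of 6 became 3 without WT replicate 1 and 9 without WT replicate 2. Over all genes tested the count of 3674 became 2106 and 4357 in the same fits. The genotypes did not overlap in 6 of 28 (21.4%, against 18.7% of all genes), namely *Cldn5*, *Cdh1* and *Tjp1* above and *Cldn2*, *Cldn8* and *Cldn12* below. The median log2 fold change was 0.17, against 0.05 over all genes tested, and 16 of 28 lay above 0. The split changed with the scaling, with 23 of 28 above 0 and 11 higher and 1 lower at an unadjusted p under 0.05 when only library size was used, and 7 of 28 above 0 and 0 higher and 9 lower when the luminal keratins *Krt8* and *Krt18* were held equal between libraries. Those scalings moved the median of all genes to 0.42 and to -0.59, and the members' median stood 0.11 and 0.15 above it, against 0.12 with TMM. They also raised the number of all 17175 genes with an unadjusted p under 0.05 from 3674 to 5809 and to 6253.

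**Figure D3:**
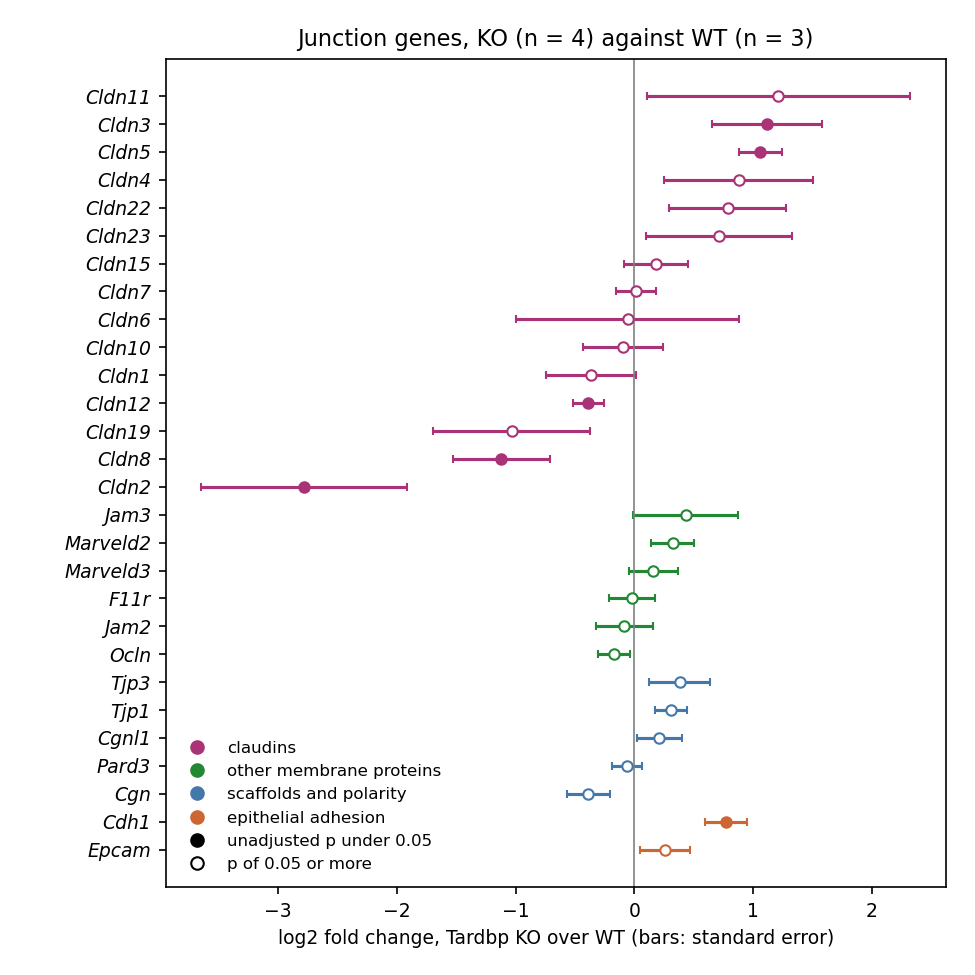
Points give the log2 fold change of KO over WT with its standard error for the 28 tested genes, ordered within 4 roles, and filled points mark an unadjusted p under 0.05. The 15 claudins spread from -2.78 (*Cldn2*) to 1.21 (*Cldn11*), and the 6 other membrane proteins from -0.17 to 0.43.

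Among the claudins that line epithelial barriers, *Cldn3* stood at 68.1, 305 and 120 CPM in WT and at 342, 272, 320 and 495 CPM in KO. WT replicates 1 and 3 lay below every KO library, and WT replicate 2 lay above KO replicate 2. The log2 fold change was 1.12 ± 0.463 (SE), with an unadjusted p of 0.0389 and an adjusted p of 0.208 by edgeR's quasi-likelihood test, and the exact permutation p was 0.0571. The unadjusted p stayed under 0.05 in only 2 of the 7 fits that left out 1 library, those without WT replicate 2 and without KO replicate 2, and the log2 fold change ran from 0.75 to 1.93 in these fits. Within lane 4 it was 0.38.

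*Cldn4*, which like *Cldn3* serves as a receptor for a clostridial enterotoxin, lies on the other strand of chromosome 5, 39279 bases away from *Cldn3*. Its levels were 26.7, 155 and 32.9 CPM in WT and 168, 78.3, 81 and 199 CPM in KO. The same WT library was high as for *Cldn3*, and *Cldn4* gave a log2 fold change of 0.88 ± 0.626 (SE, adjusted p = 0.464) that reversed to -0.29 within lane 4. Without WT replicate 2 it was 2.14 (unadjusted p = 0.00136, adjusted p = 0.0375), and without WT replicate 1 or 3 it was 0.49 or 0.53. From the lowest to the highest library *Cldn3* varied 7.26-fold and *Cldn4* 7.43-fold. The ratio of *Cldn3* to *Cldn4* RPKM varied less, from 2.83 to 5.22 in WT and from 2.92 to 5.67 in KO, and did not separate the genotypes (exact permutation p = 0.743). *Cldn23* followed the same order within WT, with 2.18, 12.3 and 3.15 CPM, against 5.71 to 17.4 CPM in KO (log2 fold change 0.71, adjusted p = 0.551). Its fold change was 1.85 without WT replicate 2, 0.32 and 0.41 without WT replicates 1 and 3, and 0.26 without KO replicate 4.

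*Cldn8* stood at 199, 142 and 162 CPM in WT and at 70.8, 130, 28.2 and 79.7 CPM in KO. All 4 KO libraries lay below the 3 WT libraries, with KO replicate 2 close to the lowest of them. The log2 fold change was -1.12 ± 0.408 (SE, unadjusted p = 0.0228, adjusted p = 0.164 by edgeR's quasi-likelihood test), and the exact permutation p was 0.0571. The unadjusted p exceeded 0.05 in 1 of 7 fits that left out a library, that without WT replicate 1, and within lane 4 the fold change was -1.58. With library size alone it was -0.75 (unadjusted p = 0.0806, adjusted p = 0.193), which is -1.17 relative to the median of all genes.

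*Cldn7*, which is known to bind EpCAM, was the steadiest of the 5, at 131, 122 and 128 CPM in WT and 134, 108, 111 and 160 CPM in KO. The log2 fold change was 0.01, with a 95% interval from -0.37 to 0.39.

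The ratios among these claudins do not depend on the scaling between libraries. *Cldn3* over *Cldn7* was 0.802, 3.88 and 1.45 in WT and 3.96, 3.9, 4.44 and 4.79 in KO, which did not overlap although WT replicate 2 nearly reached the KO libraries (2.58-fold between geometric means, exact permutation p = 0.0286, the smallest possible). *Cldn3* over *Cldn8* was 0.639, 4.03 and 1.38 in WT and 9.04, 3.92, 21.2 and 11.6 in KO, where KO replicate 2 overlapped with WT replicate 2 (6.33-fold, exact permutation p = 0.0857). *Cldn8* over *Cldn7* was 1.26, 0.962 and 1.05 in WT and 0.438, 0.997, 0.21 and 0.412 in KO (exact permutation p = 0.0857). These ratios were chosen with the levels known, and no adjustment was made over them.

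**Figure D4:**
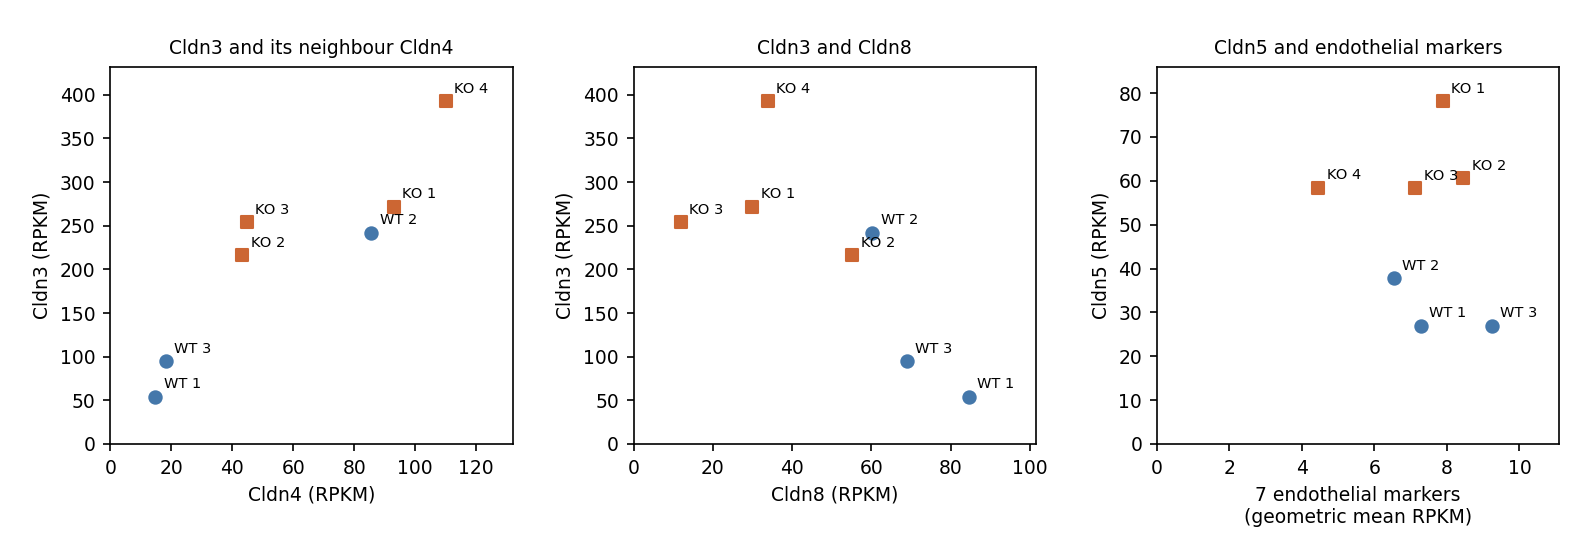
Each point is 1 library (circles WT, squares KO), with RPKM on both axes, for *Cldn3* against *Cldn4*, *Cldn3* against *Cldn8*, and *Cldn5* against the geometric mean of 7 endothelial markers. WT replicate 2 lies near the KO libraries in the first 2 plots, and in the third every KO library lies above every WT library in *Cldn5* while the endothelial markers overlap.

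*Cldn5*, the principal claudin of endothelial cells and of the blood-brain barrier, had the lowest p of the 28 genes. It stood at 38.1, 53.4 and 38.2 CPM in WT and at 111, 85.7, 82.4 and 82.5 CPM in KO. Every KO library lay above every WT library, and KO replicate 1 stood apart above the other 3. The log2 fold change was 1.06 ± 0.182 (SE), or 2.09-fold, with an unadjusted p of 0.00026 and an adjusted p of 0.0642 by edgeR's quasi-likelihood test, which misses the call. The adjusted p was 0.000168 by edgeR's exact test and 5.84e-05 by DESeq2, and both called it. The unadjusted quasi-likelihood p stayed under 0.05 in all 7 fits that left out a library (log2 fold change 0.95 to 1.24) and was 0.116 with *Krt8* and *Krt18* held equal, where the fold change of 0.5 stood 1.09 above the median of all genes. Within lane 4 it was 0.63.

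Markers of endothelium showed no difference of this kind. None of the 7 had an unadjusted p under 0.05, only *Pecam1* had a fold change above 0 (0.25, adjusted p = 0.65), and none stood under 1 CPM. *Cdh5*, the cadherin of endothelial cells, gave -0.03 (adjusted p = 0.965), and the 7 markers summed to 332 to 482 CPM in WT and 243 to 461 CPM in KO. The ratio of *Cldn5* to their geometric mean, both as RPKM, was 3.71, 5.78 and 2.92 in WT and 9.91, 7.17, 8.18 and 13.1 in KO. The KO libraries were all above the WT libraries, 2.35-fold between geometric means, with an exact permutation p of 0.0286, the smallest possible. Which cells carried the *Cldn5* RNA was not measured.

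*Cldn12*, an epithelial claudin, had the smallest difference among those with p under 0.05. It stood at 44.2, 38.8 and 41.3 CPM in WT and at 35.6, 31.8, 28.3 and 31.1 CPM in KO, so that all KO libraries were lower. The log2 fold change was -0.39 ± 0.13 (SE, unadjusted p = 0.0155, adjusted p = 0.144 by edgeR's quasi-likelihood test). It shrank to -0.01 (adjusted p = 0.953) with library size alone, -0.43 relative to the median of all genes, and in 2 of the 7 fits that left out a library, those without WT replicate 1 and without KO replicate 3, p exceeded 0.05.

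*Cldn2*, which forms a pore for cations and water in leaky epithelia, was scarce in every library. It had 10, 74 and 34 counts in WT and 0, 14, 12 and 4 in KO. After scaling, the highest KO library (0.322 CPM) was below the lowest WT library (0.376 CPM), a gap of a few counts. The log2 fold change was -2.78 ± 0.867 (SE, unadjusted p = 0.0109, adjusted p = 0.128 by edgeR's quasi-likelihood test), with a 95% interval from -4.74 to -0.81, and it was -2 to -3.26 with 1 library left out. Without WT replicate 2 its unadjusted p was 0.0615.

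The remaining tested claudins had p above 0.05. *Cldn1*, the main claudin of the epidermal barrier, was 12.1 to 28.2 CPM in WT and 8.51 to 21.7 CPM in KO, and *Cldn15*, a cation-conducting claudin of the intestine, 11.4 to 16 and 11 to 23.1 CPM. *Cldn10*, *Cldn22*, *Cldn6*, *Cldn19* and *Cldn11* had 102 to 394 counts over all 7 libraries together. The myelin claudin *Cldn11* had 10, 4 and 10 counts in WT and 34, 0, 64 and 8 in KO, and its log2 fold change was 1.21 ± 1.11 (SE), with KO replicates 1 and 3 high. *Cldn9*, with 32 counts in all, did not pass the filter. No count was found for *Cldn14* of the inner ear and kidney, *Cldn16* of the kidney tubule or *Cldn18* of stomach and lung. A level of 3 counts was 0.0614 to 0.113 CPM in a library, with counting error alone considered. Mates were counted separately, so 3 counts can be fewer than 3 fragments, and levels above this range are not excluded. Over the 15 tested claudins the median log2 fold change was 0.01, with 2 higher and 3 lower at an unadjusted p under 0.05 (33.3%, against 21.4% of all genes with 10.7% in each direction).

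None of the 6 other membrane proteins had an unadjusted p under 0.05, and their median log2 fold change was 0.07. Occludin, *Ocln*, was 28.5 to 36.3 CPM in WT and 26.4 to 28.8 CPM in KO (-0.17, adjusted p = 0.514), and with library size alone it was 0.2, which is -0.22 relative to the median of all genes. Tricellulin, *Marveld2*, which seals the corners where 3 cells meet, gave 0.32 (adjusted p = 0.344), and its relative *Marveld3* gave 0.16 (adjusted p = 0.701). Of the junctional adhesion molecules, *F11r* gave -0.02, with a 95% interval from -0.46 to 0.42, *Jam2* gave -0.08 and *Jam3* gave 0.43 (adjusted p = 0.619). *F11r* was the most abundant of the 6 (67.8 RPKM over all libraries), near *Cldn7*, and *Ocln* was at 6.97 RPKM.

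Among scaffolds, *Tjp1*, which encodes ZO-1, was 103, 106 and 91.9 CPM in WT and 127, 136, 126 and 109 CPM in KO. All KO libraries lay above all WT libraries, with a log2 fold change of 0.31 ± 0.137 (SE, unadjusted p = 0.0507, adjusted p = 0.235) that was -0.32 with *Krt8* and *Krt18* held equal, which is 0.27 above the median of all genes under that scaling. *Tjp3*, which encodes ZO-3 and was the most abundant of the 5 (59.7 RPKM), gave 0.38 (adjusted p = 0.431). Cingulin, *Cgn*, was 151, 159 and 115 CPM in WT and 99.7, 117, 88.6 and 128 CPM in KO (-0.39, unadjusted p = 0.0612, adjusted p = 0.257), whereas its paralog *Cgnl1* gave 0.21 (adjusted p = 0.573). The polarity protein gene *Pard3* varied 1.17-fold over all 7 libraries, and gave -0.06 with a 95% interval from -0.34 to 0.22.

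*Cdh1*, which encodes E-cadherin, was 123, 170 and 139 CPM in WT and 227, 215, 256 and 285 CPM in KO. All KO libraries lay above all WT libraries, and the log2 fold change was 0.77 ± 0.174 (SE, unadjusted p = 0.00168, adjusted p = 0.0806 by edgeR's quasi-likelihood test). By edgeR's exact test the adjusted p was 0.00732 and by DESeq2 0.00149, but a fold change below 1 on the log2 scale is no call. The unadjusted p was under 0.05 in all 7 fits that left out a library (log2 fold change 0.67 to 0.91). With *Krt8* and *Krt18* held equal the fold change was 0.15 (adjusted p = 0.671), which stood 0.74 above the median of all genes, and *Krt8* itself gave 0.55 (adjusted p = 0.165).

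*Epcam*, an adhesion protein that stabilises *Cldn7* protein, had the highest mean of the 32 genes per kb of exon over all 7 libraries (227 RPKM, against 218 for *Cldn3*). It was 204 ± 51.8 RPKM in WT and 244 ± 34.2 RPKM in KO (SD), above *Cldn3* in WT (130 ± 99) and below it in KO (284 ± 76.5), and gave 0.26 (adjusted p = 0.529). The ratio of *Cdh1* to *Epcam* RPKM was 0.156 ± 0.0133 (SD, n = 3) in WT and 0.221 ± 0.0151 (SD, n = 4) in KO, with an exact permutation p of 0.0286, the smallest possible. The groups did not overlap. *Cldn3* over *Epcam* was 0.328, 0.922 and 0.515 in WT and 1.26, 0.939, 1.07 and 1.34 in KO (exact permutation p = 0.0286), again with WT replicate 2 next to the lowest KO library. Relative to the geometric mean of *Krt8* and *Krt18*, the genotypes overlapped both for *Cldn3* (0.262 to 0.674 in WT and 0.56 to 0.879 in KO, exact permutation p = 0.143) and for *Cdh1* (0.103 to 0.136 in WT and 0.122 to 0.161 in KO, exact permutation p = 0.457).

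A list of 65 other genes of tight junctions, adherens junctions, desmosomes and epithelial regulation was examined in the same fit. Of 62 tested, 10 were higher and 2 lower at an unadjusted p under 0.05 (19.4%, against 21.4% of all genes, with 10.7% in each direction). The genotypes did not overlap in 8 with KO higher and 2 with KO lower, against 9.07% and 9.62% of all genes, and 42 lay above 0, with a median of 0.11. The quasi-likelihood test called none, and edgeR's exact test called 1, against 2.48% of all genes. *Cxadr*, an adhesion protein of tight junctions and a virus receptor, was 27.8, 60.9 and 35.3 CPM in WT and 122, 104, 111 and 96.9 CPM in KO. Its log2 fold change of 1.39 ± 0.258 (SE, unadjusted p = 0.000462, adjusted p = 0.0692 by edgeR's quasi-likelihood test) was no call by that test, and *Cxadr* was the gene that edgeR's exact test called. *Mllt4*, which encodes the adherens junction scaffold afadin, gave 0.54 (adjusted p = 0.105), *Tjap1*, a tight junction-associated protein, gave 0.51 (adjusted p = 0.123), and *Pkp2*, a plakophilin of desmosomes, gave -0.48 (adjusted p = 0.139). *Ctnna1*, the alpha-catenin that ties E-cadherin to actin, gave 0.37 (adjusted p = 0.16).

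TDP-43 is known to bind UG repeats in RNA. Runs of at least 3 UG dinucleotides, TG on the sense strand of the DNA and on that strand only, were therefore looked for in the longest coding transcript of each gene. They were present in 23 of the 32 genes and in 71.5% of the 15112 tested genes with such a transcript. *Cldn3*, *Cldn4* and *Cldn7* had none, *Cldn8* had 3 runs and *Cldn5* 1. Runs of at least 6 dinucleotides were present in 2 of the 32 genes and in 6.33% of the tested genes. *Marveld3* had a run of 10 in its 3′ untranslated region, and *F11r* a run of 31 in its own. They are the longest of the list and are shown in capitals, for *F11r* as the first 30 bases only.
*Marveld3*, run at chr8:112477382-112477401, NCBIM37, - strand: agcgTGTGTGTGTGTGTGTGTGTGgtaa
*F11r*, run at chr1:173393952-173394013, NCBIM37, + strand: TGTGTGTGTGTGTGTGTGTGTGTGTGTGTG

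The log2 fold changes of these 2 genes were 0.16 and -0.02, as given above. A run of these letters is a description of the transcript, and binding was not measured here.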

How the data were processed

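RNA-seq was performed on mammary glands at lactation day 1. The authors made TruSeq libraries, mapped paired reads to NCBIM37 (mm9) with STAR (2.5.2a in the submitters' processing notes) and deposited whole-number counts per gene from featureCounts 1.4.6-p5. Its command line sets no option for strand or pairs, so reads of both strands were counted and mates counted separately, which makes counts of a gene larger than its number of fragments. Reads with several places or genes were not counted. Of the columns of the deposited table, 0 could not be matched to a label. Totals were 36007737 to 42811337 counts. The floors (3 counts) cover counting error only and take counts as independent, although mates were counted separately.

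The labels gave the genotype of each library. After mitochondrial (37) and ribosomal (580) genes had been taken out, 17175 genes reached 5 counts in at least 4 of 7 libraries and were tested. edgeR 4.0.16 in R 4.3.3 was used with TMM factors and the quasi-likelihood test, with the study's limits (adjusted p under 0.01, absolute log2 fold change above 1). The study does not name its edgeR test. edgeR's exact test and DESeq2 1.42.0 were alternatives. Single values were compared by a 2-sided exact permutation test over 35 splits, of log2(CPM + 1) for a gene, of the percentage for a share, and of the log2 value for a ratio. Its smallest p is 0.0286. The fit had a common dispersion of 0.0921 and 3.91 prior degrees of freedom, which also set the 95% intervals.

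All 32 genes are named. Values in every library are given for those with an unadjusted p under 0.05 and the 5 most abundant claudins, and the 4 other junction genes with the lowest p are named. *Tjp1*, *Cgn*, *Ctnna1* and the ratios were added after their values had been seen. The members and lists were chosen with earlier results of these data known. Markers of other cells (myoepithelium, lymphatic endothelium, fibroblasts, adipocytes, keratinocytes, salivary gland, skeletal muscle) are given in the closing section. Replicates of a genotype differed beyond counting noise in all 9 pairs (chi-square per degree of freedom 93.1 to 209). Sequences and coordinates come from NCBIM37 and GENCODE vM1.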

Additional observations from a re-analysis of the deposited data

Results flagged for a closer look

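In the 4 KO libraries, 1 library stood apart from the other 3 for 4 of the 29 genes with any count in them, by a gap of 0.857 to 0.902 of the group's range, above Dixon's 95% limit. Chance gives about 1 in 20 groups. *Cldn5* was 111 CPM in KO replicate 1 against 82.4 to 85.7 CPM in the others, so the library that stood apart lay farther from WT. *Pard3* was 50.5 CPM in KO replicate 2 against 44.4 to 45 CPM, within the WT range of 43.4 to 50.9 CPM. *Cldn6* was at 0 CPM in KO replicate 1 against 0.46 to 0.533 CPM, and *Cldn9* was 0.164 CPM in KO replicate 3 against 0.0531 to 0.069 CPM, which is a difference between 8 counts and 2 or 3. The 3 WT libraries are too few for this comparison.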

How the results depend on the processing

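Of 532 single-gene log2 fold changes recomputed under 19 alternatives, 521 kept their side of the call limits and, where they exceeded their standard error, their direction, and *Cldn5* was called under 2 (1.06 by edgeR's exact test and 1.05 by DESeq2). Sign turned with library size alone for *Ocln* (0.2), with *Krt8* and *Krt18* held equal for *Tjp1* (-0.32), *Tjp3* (-0.23), *Marveld2* (-0.27), *Cgnl1* (-0.39) and *Epcam* (-0.34), and within lane 4 for *Cldn4* (-0.29), *Cldn23* (-0.14) and *Cgnl1* (-0.13). The first 2 settings moved the median of all genes to 0.42 and -0.59, and relative to it *Ocln* (-0.22), *Tjp1* (0.27), *Tjp3* (0.36), *Marveld2* (0.32), *Cgnl1* (0.2) and *Epcam* (0.25) kept their sign. Of the 28 genes, those with an unadjusted p under 0.05 numbered 6, 12 with library size alone, 10 with the replicate number as a block, and 3 (without WT replicate 1) to 9 (without WT replicate 2) with 1 library left out. Over all 17175 genes tested the same counts were 3674, 5809, 4225, and 2106 to 4357. Among the 28 genes 0 were called, but 1 by edgeR's exact test and 1 by DESeq2. The median of 0.17 of the 28 genes was 0.53 with library size alone, -0.44 with *Krt8* and *Krt18* held equal, -0.03 within lane 4, 0.35 with 7 endothelial markers held equal (an alternative chosen after seeing the data), and 0.06 to 0.26 with 1 library left out. The endothelial scaling moved the median of all genes to 0.24, and the median of the 28 stood 0.11 above it. Differences of claudin shares within lane 4 were 8.92 (*Cldn3*), 0.01 (*Cldn7*) and -7.94 (*Cldn8*) percentage points. The block made no call among the 28 genes, as did the fit without it. The labels name no shared batch, so replicate numbers were not taken as pairs. The 3 same-number correlations of deviations ran from -0.084 to 0.437, the highest of any WT and KO pair. So few libraries cannot decide whether the numbers pair them. The causes of these shifts were not tested. In low-count claudins a few counts decide the order of libraries, and lane 4 holds 1 WT library.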

Other observations

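None of 6 myoepithelial, 3 tested lymphatic endothelial, 5 fibroblast or 5 adipocyte markers had an unadjusted p under 0.05 in edgeR's quasi-likelihood test, and their summed levels overlapped between the genotypes (1010 to 1700 CPM in WT and 905 to 2590 CPM in KO for myoepithelium, 555 to 1500 and 376 to 1570 for fibroblasts, 1230 to 1880 and 1280 to 3250 for adipocytes, 11.8 to 27.6 and 10.3 to 31.9 for lymphatic endothelium). All 3 tested keratinocyte markers lay below 0 (median log2 fold change -0.66), 1 of them at an unadjusted p under 0.05, with sums of 9.24 to 9.78 CPM in WT and 4.09 to 8.43 CPM in KO that did not overlap. Salivary gland markers summed to 33.2 to 44.1 CPM in WT and 30.3 to 60.1 CPM in KO, with 3 of 4 under 1 CPM, and skeletal muscle markers summed to 0.894 to 1.22 CPM in WT and 0.693 to 3.5 CPM in KO, and none of the tested genes of the salivary gland and skeletal muscle lists had an unadjusted p under 0.05.

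Among the luminal markers, *Kit*, a receptor of luminal progenitor cells, was 32.2, 137 and 49.3 CPM in WT and 263, 196, 154 and 208 CPM in KO (log2 fold change 1.49, unadjusted p = 0.00975, adjusted p = 0.125 by edgeR's quasi-likelihood test). *Elf5*, a transcription factor of secretory alveolar cells, was 1110, 1020 and 1050 CPM in WT and 434, 798, 718 and 864 CPM in KO (-0.59, adjusted p = 0.214 by the same test). Of the other luminal markers, *Krt8* (0.55) and *Cited1* (-0.74) also had an unadjusted p under 0.05 by that test. *Krt18* (0.64), *Prom1* (0.41), *Krt19* (0.19) and *Ehf* (-0.24) did not. For *Kit*, as for *Cldn3*, *Cldn4* and *Cldn23*, WT replicate 2 was the highest of the WT libraries, and the likeness of these patterns was not tested. It was also the highest WT library for *Krt8*, *Krt18*, *Epcam* and *Cdh1*, among others, and the lowest for *Cldn7* and *Cldn8*. Relative to the WT mean, the median log2 level of the tested members was -0.15, 0.18 and -0.04 in WT replicates 1 to 3.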
